A study of Homo sapiens with 11 samples.

Results

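The genes described are 10 members of the integrated stress response: ATF4, ATF3, DDIT3, CHAC1, TRIB3, PPP1R15A, SESN2, ASNS, PSAT1 and PHGDH. Their rows were taken by gene symbol from a joined table of raw read counts of 38557 genes. All 10 had a row, and 9 passed the filter on low counts that left 14683 genes for testing. SESN2 was the member that did not pass.

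In the integrated stress response, kinases that sense amino acid shortage, heme shortage, misfolded protein in the endoplasmic reticulum (ER) or viral RNA phosphorylate the translation factor eIF2. Bulk protein synthesis then slows, while the mRNA of ATF4 is translated better, so that ATF4 protein can rise without a change in its mRNA. ATF4 is a basic leucine zipper factor that binds DNA with C/EBP-type partners and switches on genes for amino acid synthesis and transport, for charging of tRNA, for cell death and for the reversal of eIF2 phosphorylation. RNA counts measure neither ATF4 protein nor the phosphorylation of eIF2.

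RNA was sequenced from MOLM-13, a line derived from acute myeloid leukemia with a rearranged KMT2A (MLL) gene, after 72 h with vehicle (DMSO, 4 libraries), with 1 µM MI-503 (4 libraries) or with 1 µM MI-503 plus 100 nM PR-957 (3 libraries, replicates 1, 2 and 4). MI-503 blocks the binding of menin to KMT2A proteins, and PR-957 (ONX-0914) inhibits the immunoproteasome subunit PSMB8 (LMP7). All 3 groups were the same line, and no library of PR-957 alone was analysed here, so an effect of PR-957 could be read only on top of MI-503. The labels do not say that replicates came from separate cultures, so p-values measure the spread between these libraries, which may be technical.

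To show where ATF4-type sites lie in front of these genes, the 250 bases before each RefSeq start site (GRCh38.p14) were searched. All 10 genes matched, with 16 start site windows among them. The letters searched on both strands were TGATGNAA, the core of the C/EBP-ATF response element bound by ATF4 with a C/EBP partner, and TGACGTCA, the cyclic AMP response element bound by CREB and ATF factors. No match of one overlapped a match of the other. TGATGNAA was found in 3 of the 16 member windows (of ATF3, CHAC1 and ASNS) and in 1104 of 35116 RefSeq windows of this length (3.14%). TGACGTCA was found in 1 of the 16 member windows (of PPP1R15A) and in 578 of the RefSeq windows (1.65%). The matched stretches of these 4 genes are shown with the matched letters in capitals, written 5′ to 3′ on the gene's strand. For CHAC1, PPP1R15A and ASNS the match lay in an exon of GENCODE or of the annotation used for counting, and 30 bases are given. For ASNS that is exon 2 of ASNS itself in the annotation used for counting. The gene and transcript of the exon were not looked up for the others. A match is a description of the letters only.
ATF3, chr1:212565157-212565333, plus strand, match from −191: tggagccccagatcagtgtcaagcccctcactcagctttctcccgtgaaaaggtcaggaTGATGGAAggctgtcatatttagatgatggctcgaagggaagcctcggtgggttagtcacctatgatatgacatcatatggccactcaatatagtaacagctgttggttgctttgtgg
CHAC1, chr15:40953251-40953280, plus strand, match from −209, element on the opposite strand: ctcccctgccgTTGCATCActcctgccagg
ASNS, chr7:97872458-97872487, minus strand, match from −68: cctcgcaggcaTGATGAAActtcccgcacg
PPP1R15A, chr19:48872352-48872381, plus strand, match from −58: gcctctcttcgTGACGTCAgcacgccgggc

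The libraries held 18891243 to 41153974 counted fragments. Combination replicate 1, the deepest, stood apart from its group, with 36 of 10039 well-expressed genes beyond 2-fold of the mean of the other combination libraries, against 4 and 13 genes for replicates 2 and 4 and 0 or 1 for each DMSO and MI-503 library. Several results that change without it are given with and without it. Of 9 myeloid markers, FLT3, CD33, SPI1, MPO, CEBPA, CSF1R, ITGAM and LYZ were counted in every library and CD14 was near 0 (at most 0.483 CPM, the usual counts-per-million unit). Of 8 lymphoid and erythroid markers, MS4A1 had no count, CD3D, CD3E and HBB had at most 2 fragments and ALAS2 at most 6 in a library, and NCAM1 stood at 108 to 194 CPM.

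Levels are given as CPM scaled by TMM factors, and differences as log2 fold changes from edgeR's quasi-likelihood test over all 14683 genes, called at a Benjamini-Hochberg adjusted p under 0.05. With MI-503 against DMSO, 7 of the 9 tested members were lower, none was higher, and DDIT3 and PPP1R15A were not called. None was higher at an unadjusted p under 0.05 or by DESeq2 or limma-voom either. Of all genes tested 51.4% were called, 29.3% lower and 22.0% higher. With PR-957 added to MI-503, 3 members were higher than in MI-503 alone (DDIT3, PPP1R15A and ATF3), 4 were lower (PHGDH, PSAT1, CHAC1 and TRIB3), and ATF4 and ASNS were not called. Among all genes 47.4% were called in that comparison, 23.6% higher and 23.8% lower. Against DMSO, the combination left DDIT3 and PPP1R15A higher and the other 7 tested members lower, where 64.5% of all genes were called, 31.7% higher and 32.8% lower. The median log2 difference of the 9 members was −0.55 with MI-503 against DMSO, −0.75 with the combination against DMSO and −0.26 with the combination against MI-503, while the medians over all genes tested were −0.03, 0.01 and 0.00. Scaling by library totals alone made the split of calls over all genes more upward, with 59.5% of the called genes higher in the combination against DMSO and 60.6% against MI-503, where TMM gave 49.1% and 49.8%. With MI-503 against DMSO, upper-quartile factors gave 54.2% where TMM gave 42.9%. Each called member kept its direction under these scalings. The values of the drug group lay wholly outside those of DMSO for 6 of the 9 members with MI-503 (50.3% of all genes) and for 8 with the combination (60.5%), and the combination lay outside MI-503 for 8 (47.6%). The comparisons share libraries, so their values are set side by side and are not independent of each other.

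**Figure D1:**
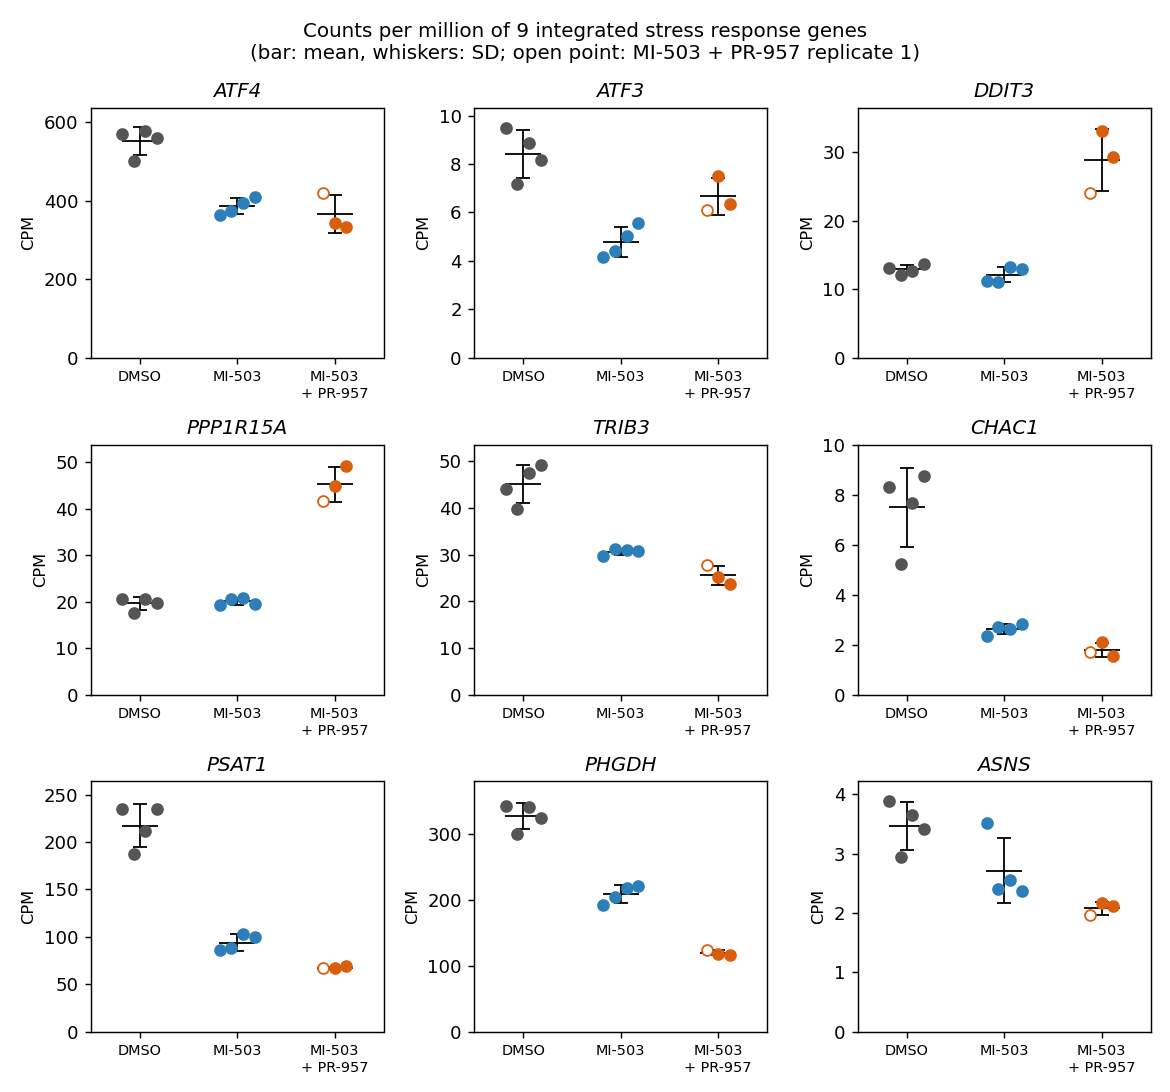
CPM of the 9 tested members in each library (y axes, linear, from 0) for DMSO, MI-503 and MI-503 + PR-957, with the bar at the group mean, whiskers of 1 SD and combination replicate 1 as an open point. DDIT3 and PPP1R15A rise only in the combination, to means of 28.8 and 45.3 CPM, whereas PSAT1 and PHGDH step down with each drug, from 217 and 327 CPM in DMSO to 67.6 and 120 CPM in the combination.

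ATF4, the transcription factor at the centre of the response (chromosome 22, 39514494 to 39522686, plus strand, hg38), was counted at 570, 500, 577 and 560 CPM in DMSO, at 364, 373, 395 and 409 CPM in MI-503 and at 420, 343 and 332 CPM in combination replicates 1, 2 and 4. Every library of either drug group lay below every DMSO library, and the drug groups overlapped. The mean fell from 552 ± 35.2 CPM (SD, n = 4) to 385 ± 20.7 CPM (n = 4), a log2 difference of −0.52 (SE 0.07, edgeR adjusted p = 6.59e-06). The combination stood at 365 ± 47.8 CPM (n = 3), −0.60 against DMSO (SE 0.07, edgeR adjusted p = 1.71e-06). Against MI-503 the combination differed by −0.08, with a 95% interval of −0.23 to 0.08 (edgeR adjusted p = 0.409). Combination replicate 1 decided that last value, since without it the difference was −0.22 (edgeR adjusted p = 0.00203).

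Part of the annotated exons of ATF4 could not be counted. Of its 7716 annotated exon bases, 3641 (47.2%) are shared with MIEF1 on the same strand, all of them at the upstream end of exon 1 from 39514494 to 39518134. Fragments that touch exons of both genes were left out of the table. Exon bases from 39518135 on, exons 2 and 3 included, belong to ATF4 alone, so that 4.08 kb of it was counted. The RefSeq start sites searched above follow 39520558 and 39520561, inside exon 2 and downstream of the shared stretch. Transcripts from those sites hold none of the shared bases, and which start MOLM-13 uses was not tested. MIEF1, a mitochondrial outer membrane protein, differed by −0.21 with MI-503 against DMSO (edgeR adjusted p = 0.00126) and by −0.07 with the combination against MI-503 (edgeR adjusted p = 0.300).

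**Figure D2:**
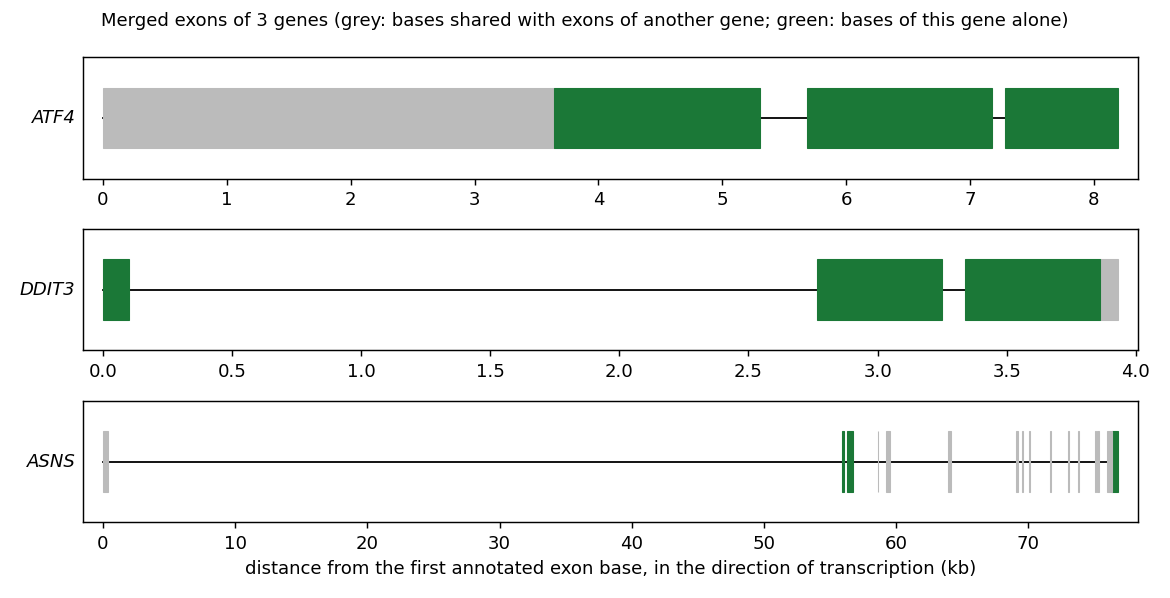
Merged annotated exons of ATF4, DDIT3 and ASNS along the direction of transcription (x axis, kb from the first annotated exon base), grey where the bases are shared with exons of another gene and green where they belong to the gene alone. The shared part covers 47.2% of the exon bases of ATF4, 5.77% of those of DDIT3 and 67.6% of those of ASNS.

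DDIT3 (CHOP) encodes a C/EBP-family factor that pairs with ATF4 and promotes cell death under lasting stress (chromosome 12, 57516588 to 57520517, minus strand). Its level was 13.1, 12.0, 12.7 and 13.7 CPM in DMSO, 11.2, 11.1, 13.2 and 12.9 CPM in MI-503, and 24.0, 33.0 and 29.3 CPM in combination replicates 1, 2 and 4. DMSO and MI-503 libraries overlapped, while the lowest combination library, replicate 1, lay above all of them. DDIT3 differed by −0.09 with MI-503 against DMSO (95% interval −0.29 to 0.12, edgeR adjusted p = 0.487). It rose by 1.24 on the log2 scale from MI-503 to the combination (SE 0.10, edgeR adjusted p = 3.18e-08), or 2.36-fold, and by 1.15 from DMSO (SE 0.10, edgeR adjusted p = 1.78e-08). At its 3′ end 68 of 1178 exon bases are shared with MARS1 on the opposite strand, and counting did not use strand. MARS1, the cytosolic methionyl-tRNA synthetase, moved otherwise: it fell by 0.64 with MI-503 against DMSO (edgeR adjusted p = 1.09e-08) and differed by −0.06 between the combination and MI-503 (edgeR adjusted p = 0.393).

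ATF3, a factor induced by ATF4 that mostly represses its own targets (chromosome 1, 212565334 to 212620777, plus strand), was a low-count gene of 90 to 281 fragments a library. It stood at 9.48, 7.16, 8.86 and 8.16 CPM in DMSO, at 4.16, 4.41, 5.03 and 5.56 CPM in MI-503, and at 6.11, 7.52 and 6.36 CPM in the combination. The MI-503 libraries were the lowest, the combination libraries lay above all of them, and combination replicate 2 reached into the DMSO range. ATF3 fell by 0.82 on the log2 scale with MI-503 (SE 0.12, edgeR adjusted p = 1.98e-05) and was 0.46 higher in the combination than in MI-503 (SE 0.13, edgeR adjusted p = 0.00646). It was the tested member called lower in the first step and higher in the second, a sequence seen in 5.27% of all genes. The call of that rise was lost without combination replicate 2, where the difference was 0.34 (edgeR adjusted p = 0.0565). The combination differed from DMSO by −0.36 (edgeR adjusted p = 0.0171), which became −0.28 without combination replicate 1 (edgeR adjusted p = 0.0682) and −0.29 without DMSO replicate 1 (edgeR adjusted p = 0.0700).

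The response carries its own brakes. PPP1R15A (GADD34) is the regulatory subunit that brings protein phosphatase 1 to eIF2 and so reverses its phosphorylation (chromosome 19, 48872392 to 48876062, plus strand). It was counted at 20.5, 17.6, 20.7 and 19.8 CPM in DMSO, at 19.4, 20.5, 20.8 and 19.6 CPM in MI-503, and at 41.7, 44.9 and 49.2 CPM in the combination. DMSO and MI-503 were interleaved, and each combination library was over 40 CPM. The difference of MI-503 from DMSO was 0.03 (95% interval −0.11 to 0.17, edgeR adjusted p = 0.722). The combination was 2.25-fold over MI-503, a log2 difference of 1.17 (SE 0.07, edgeR adjusted p = 6.92e-10), and 1.20 over DMSO (SE 0.07, edgeR adjusted p = 1.54e-10). PPP1R15A and DDIT3 were not called with MI-503 and were called higher once PR-957 was added, a sequence seen in 11.5% of all genes.

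TRIB3, a pseudokinase that binds ATF4 and DDIT3 and dampens their activity (chromosome 20, 380629 to 397559, plus strand), went the other way. Its levels were 44.0, 39.8, 47.5 and 49.1 CPM in DMSO, 29.7, 31.1, 31.0 and 30.8 CPM in MI-503, and 27.7, 25.3 and 23.6 CPM in the combination. The 3 groups did not overlap, with the combination lowest. TRIB3 fell by 0.55 with MI-503 against DMSO (SE 0.07, edgeR adjusted p = 2.45e-06), and was lower again in the combination than in MI-503, by −0.26 (SE 0.07, edgeR adjusted p = 0.00717). From DMSO to the combination the log2 difference was −0.81 (SE 0.07, edgeR adjusted p = 3.05e-08).

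CHAC1, a gamma-glutamyl cyclotransferase that degrades glutathione (chromosome 15, 40942137 to 40956518, plus strand), showed the largest falls of the 9 tested members against DMSO in both drug groups. It was counted at 8.30, 5.23, 7.68 and 8.77 CPM in DMSO, 2.36, 2.70, 2.64 and 2.82 CPM in MI-503, and 1.70, 2.11 and 1.56 CPM in the combination, from 246 down to 42 fragments a library. The groups again did not overlap. CHAC1 was 2.84-fold lower in MI-503 than in DMSO (log2 difference −1.51, SE 0.15, edgeR adjusted p = 4.21e-07) and 4.26-fold lower in the combination (−2.09, SE 0.18, edgeR adjusted p = 1.59e-08). The further step from MI-503 to the combination was −0.58 (SE 0.19, edgeR adjusted p = 0.0190). CHAC1 and DDIT3, which are both commonly read as markers of ATF4 activity, thus moved in opposite directions between MI-503 and the combination.

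**Figure D3:**
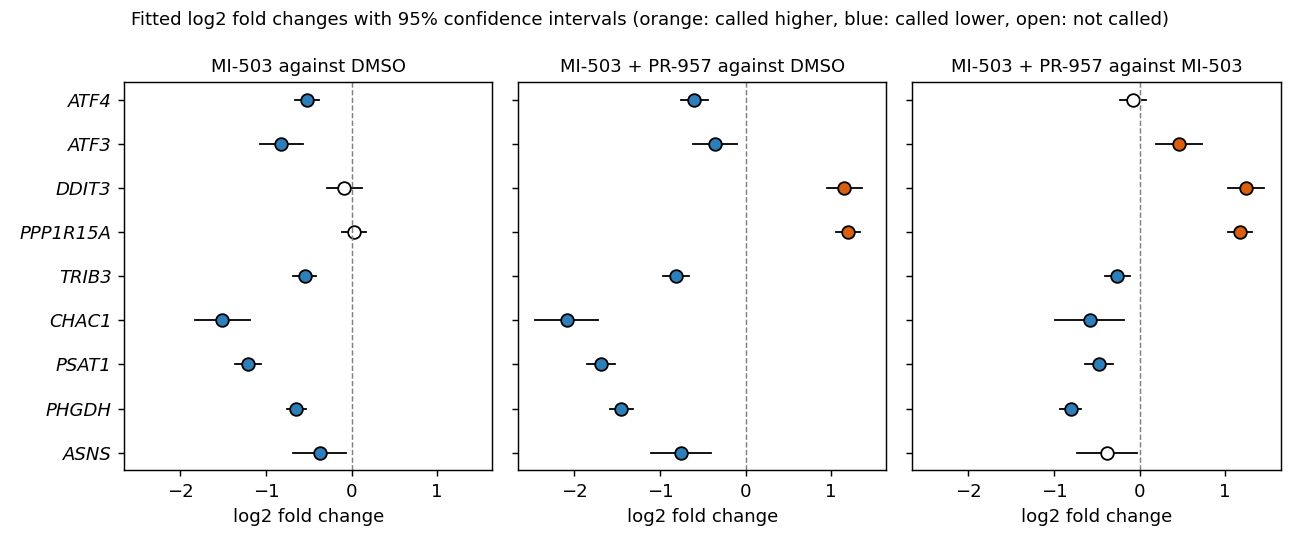
Fitted log2 fold changes (x axes) of the 9 tested members in the 3 comparisons with 95% confidence intervals as bars, orange where called higher, blue where called lower and open where not called. With the combination against MI-503 the members lie on both sides of 0, from −0.80 for PHGDH to 1.24 for DDIT3.

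Enzymes of serine synthesis fell in both steps. PHGDH, the first enzyme of the pathway from 3-phosphoglycerate (chromosome 1, 119711934 to 119744218, plus strand), stood at 343, 300, 341 and 324 CPM in DMSO, 192, 204, 219 and 222 CPM in MI-503, and 124, 118 and 117 CPM in the combination. The 3 groups were far apart relative to their spread. PHGDH fell by 0.65 with MI-503 (SE 0.05, edgeR adjusted p = 3.91e-08) and by a further 0.80 when PR-957 was added (SE 0.06, edgeR adjusted p = 1.33e-08). The combination was 2.73-fold below DMSO (log2 difference −1.45, SE 0.06, edgeR adjusted p = 4.21e-12).

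PSAT1, the aminotransferase that acts next in the same pathway (chromosome 9, 78297125 to 78330093, plus strand), was counted at 235, 187, 212 and 235 CPM in DMSO, 85.7, 87.9, 103 and 99.5 CPM in MI-503, and 66.8, 67.1 and 68.9 CPM in the combination. No library of one group reached the range of another. Its steps were of unequal size, −1.21 with MI-503 (SE 0.07, edgeR adjusted p = 6.76e-10) and −0.48 from MI-503 to the combination (SE 0.08, edgeR adjusted p = 9.64e-05). In PHGDH the step with PR-957 was the larger of the pair, and the difference between the steps was not tested. PSAT1, PHGDH, CHAC1 and TRIB3 were lower in both steps, as were 11.2% of all genes.

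ASNS makes asparagine from aspartate and glutamine and is a classical ATF4 target (chromosome 7, 97851677 to 97928441, minus strand). Of its 3326 exon bases, 2247 (67.6%) are shared with CZ1P-ASNS on the same strand, and only 1.08 kb in exons 2 and 3 and part of exon 15 could be counted. Between 43 and 115 fragments a library were assigned to it, at 3.88, 2.94, 3.65 and 3.41 CPM in DMSO, 3.52, 2.41, 2.56 and 2.37 CPM in MI-503, and 1.96, 2.16 and 2.12 CPM in the combination. The combination libraries lay below all others, while MI-503 replicate 1 lay within the DMSO range. Between DMSO and the combination ASNS fell by 0.75 on the log2 scale (SE 0.16, edgeR adjusted p = 0.000611). With MI-503 the difference was −0.37 (SE 0.15, edgeR adjusted p = 0.0419), a call that was lost under 15 of 20 alternatives, with adjusted p-values from 0.00714 to 0.139. From MI-503 to the combination it was −0.38 (95% interval −0.73 to −0.03, edgeR adjusted p = 0.0686). CZ1P-ASNS itself stood at 2.26 CPM on average in DMSO and was 0.48 higher with MI-503 (edgeR adjusted p = 0.0235), and −0.20 in the combination against MI-503 (edgeR adjusted p = 0.346).

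SESN2, a leucine sensor and inhibitor of mTORC1 (chromosome 1, 28259452 to 28282491, plus strand), could not be evaluated. Its counts were 1, 0, 1 and 0 in DMSO, 0, 0, 4 and 0 in MI-503, and 1, 1 and 0 in the combination. The annotation lists its exons both on chromosome 1 and on an alternate contig of the same region, as it does for 2156 genes with exons on more than 1 contig, and fragments with several alignments were left out of the counts. Whether the near absence of counts reflects expression was not tested.

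Levels of different members can be set side by side only per length of counted exon. In CPM per kb of unshared exon, DMSO cells held most ATF4 (135 ± 8.63, SD, n = 4), then PSAT1 (98.6 ± 10.5) and PHGDH (42.8 ± 2.60). TRIB3 (14.0 ± 1.29), DDIT3 (11.6 ± 0.633) and PPP1R15A (8.24 ± 0.601) formed a middle range, above ASNS (3.22 ± 0.373), ATF3 (2.24 ± 0.265) and CHAC1 (1.23 ± 0.259). DDIT3 (10.9 ± 0.977, n = 4) already stood above TRIB3 (9.53 ± 0.204) in MI-503. In the combination DDIT3 (25.9 ± 4.05, n = 3) and PPP1R15A (19.0 ± 1.56) stood above both PHGDH (15.6 ± 0.522) and TRIB3 (7.93 ± 0.644), the reverse of their order in DMSO. ATF4 (89.5 ± 11.7) and PSAT1 (30.6 ± 0.510) still led and CHAC1 (0.294 ± 0.0466) was still last. Neighbours in these orders lay more than their SDs apart in all 3 groups, except ASNS (1.93 ± 0.0975) and ATF3 (1.78 ± 0.201) in the combination. Exon lengths merge all annotated transcripts, and which of them MOLM-13 uses was not tested.

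As a description over the 11 libraries, which share the group differences, the log2 CPM of CHAC1 had a Pearson r of 0.99 with PSAT1 and of 0.98 with TRIB3, and ATF4 an r of 0.96 with TRIB3. DDIT3 and PPP1R15A had an r of 0.97 with each other and of −0.81 and −0.87 with PHGDH. ATF3 fell between these sets, with 0.71 to ATF4 and 0.21 to DDIT3. Among the 10038 or 10039 other genes that averaged 5 CPM or more, the gene most like PSAT1 was GARS1, a glycyl-tRNA synthetase (r = 0.998), and that most like TRIB3 was YARS2, the mitochondrial tyrosyl-tRNA synthetase (r = 0.988). For DDIT3 it was NPLOC4 (r = 0.989), a cofactor of the segregase VCP that hands ubiquitinated proteins to the proteasome, which stood at a mean of 137 CPM in DMSO, 129 CPM in MI-503 and 354 CPM in the combination. For PPP1R15A it was ACADVL, an enzyme of fatty acid oxidation (r = 0.992). The closest genes to ATF4, ATF3, CHAC1, ASNS and PHGDH were JADE3 (r = 0.991), MRPS5 (r = 0.969), GYG1 (r = 0.989), TSPAN3 (r = 0.953) and ATP5F1A (r = 0.997).

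To place the members in their pathway, 7 further lists of genes were counted, from the kinases upstream to the targets of ATF4. Named genes are the 3 of each list with the smallest adjusted p in the combination against MI-503, unless said otherwise. The shares of all genes to read these counts against are those given above, 29.3% lower and 22.0% higher with MI-503 against DMSO, and 23.8% lower and 23.6% higher in the combination against MI-503. Upstream, the 16 genes of the eIF2 kinases and eIF2 machinery had log2 differences from −0.52 to 0.15 with MI-503 against DMSO (9 lower, none higher, median −0.14). Without combination replicate 1, 7 were lower and 1 was higher in that comparison (median −0.10). With library totals alone, 6 were lower and none was higher. Between the combination and MI-503 the list ranged from −0.21 to 0.27 (3 higher, 3 lower, median −0.04, or 3 higher and none lower with a median of 0.02 when scaled by library totals alone). EIF2S2, the beta subunit of eIF2, was lower in the combination than in MI-503 by −0.17 (edgeR adjusted p = 0.00938), and EIF2B4, a subunit of its exchange factor, was higher by 0.27 (edgeR adjusted p = 0.000634). DELE1, which relays mitochondrial stress to the kinase EIF2AK1, was higher by 0.18 (edgeR adjusted p = 0.0115), and by 0.08 without combination replicate 1 (edgeR adjusted p = 0.172). Without that library 1 gene of the list was higher and 5 were lower in the combination against MI-503.

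The 12 partners and related factors of ATF4 went both ways with MI-503 (5 higher, 4 lower, median −0.01). When PR-957 was added, 8 were called higher and 2 lower (median 0.41, or 0.55 without combination replicate 1). The 8 and the median include NUPR1, whose call was favoured by the filter, as given below. NUPR1, a small stress-induced chromatin protein, was at 0.371, 0.321, 0.427 and 0.190 CPM in DMSO, 0.278, 0.349, 0.289 and 0.368 CPM in MI-503, and 1.23, 5.72 and 5.50 CPM in the combination. Every combination library was above all others, and replicate 1 was far below replicates 2 and 4. With 4 to 12 fragments in each DMSO and MI-503 library, NUPR1 passed the filter on low counts through the combination group, so its difference is given as levels only. XBP1, the factor of the IRE1 branch of the unfolded protein response, fell with each step, from a mean of 462 CPM in DMSO to 253 CPM in MI-503 and 151 CPM in the combination, by 0.87 (edgeR adjusted p = 6.61e-10) and then by 0.75 (edgeR adjusted p = 1.97e-08). MAFG, a small MAF partner of NFE2-family factors, was higher in both steps, by 0.27 (edgeR adjusted p = 0.000414) and 0.57 (edgeR adjusted p = 5.21e-07).

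Downstream, 14 other enzymes of serine, glycine, proline and one-carbon metabolism were counted. With MI-503 12 were lower and none was higher (median −0.47). In the combination against MI-503 8 were lower and 1 was higher (median −0.30), and against DMSO 13 were lower and 1 was higher (median −0.75). Without combination replicate 1 these were 9 lower and 1 higher (median −0.37), and 12 lower and 1 higher (median −0.77). PYCR1, which makes proline, went from a mean of 113 CPM in DMSO to 90.8 CPM in MI-503 and 53.8 CPM in the combination, and its combination libraries stood at 50.4, 55.8 and 55.2 CPM. Its level fell by 0.32 in the first step (edgeR adjusted p = 5.98e-06) and by 0.76 in the second (edgeR adjusted p = 1.42e-09). ALDH1L2, a mitochondrial folate enzyme, fell by 0.66 and 0.76 (edgeR adjusted p = 3.50e-08 and 3.35e-08), and BCAT1, the cytosolic branched-chain aminotransferase, by 0.55 and 0.73 (edgeR adjusted p = 1.31e-06 and 2.53e-07). The 1 enzyme that was higher was CTH, named after its values were seen, which makes cysteine from cystathionine (0.77 in the combination against MI-503, edgeR adjusted p = 2.63e-05).

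Amino acid transporters were split. With MI-503 7 of 11 were lower and 1 was higher (median −0.42), and between MI-503 and the combination 8 were lower and 3 were higher (median −0.34). The neutral amino acid carriers SLC1A4 and SLC38A1 and the cationic carrier SLC7A1 were lower in the combination than in MI-503, by −0.38, −0.66 and −0.46 (edgeR adjusted p = 2.25e-06, 4.88e-06 and 1.28e-05). The 3 that were higher, named after their values were seen, were SLC7A11 and SLC3A2, the subunits of the cystine importer, and the lysosomal carrier SLC36A1. SLC7A11 was at a mean of 26.3 CPM in DMSO, 28.0 CPM in MI-503 and 82.4 CPM in the combination, a log2 difference of 1.55 from MI-503 (edgeR adjusted p = 1.73e-05), and SLC3A2 and SLC36A1 differed by 0.44 and 0.27 (edgeR adjusted p = 0.000972 and 0.00337).

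Of 19 cytosolic aminoacyl-tRNA synthetases, enzymes that load amino acids on tRNA, 18 were lower and 1 was higher with MI-503 (median −0.38), and 12 were lower and none was higher in the combination against MI-503 by edgeR (median −0.17), or 15 and none without combination replicate 1, and 9 and none with a median of −0.11 when scaled by library totals alone. The lists with no gene higher by edgeR over all 11 libraries, here and above, had none at an unadjusted p under 0.05 and none by DESeq2 or limma-voom. AARS1 and YARS1, for alanine and tyrosine, fell by 0.33 and 0.40 in the second step (edgeR adjusted p = 2.92e-06 and 1.65e-05). The 19 other ATF4 targets that were tested, of 21 listed, were mixed with MI-503 (5 higher, 8 lower, median −0.07) and also when PR-957 was added (10 higher, 5 lower, median 0.20, or 8 higher, 6 lower and a median of 0.16 without combination replicate 1). The 10 and the median of 0.20 include GDF15, named here for its low counts, at means of 0.352, 0.174 and 0.955 CPM in DMSO, MI-503 and the combination. Without the combination group GDF15 would not have passed the filter on low counts, so its call was favoured by the filter. GADD45A, a growth arrest gene, stood at means of 10.1, 11.4 and 27.1 CPM in DMSO, MI-503 and the combination, and CDKN1A, the cell cycle inhibitor p21, at 145, 107 and 162 CPM. Between MI-503 and the combination, GADD45A rose by 1.25 on the log2 scale (edgeR adjusted p = 5.40e-10) and CDKN1A by 0.59 (edgeR adjusted p = 2.53e-07). HMOX1, the heme oxygenase, which other stress factors also control, was at 0.416, 0.407, 0.825 and 0.450 CPM in MI-503 and at 7.97, 89.2 and 47.3 CPM in the combination (log2 difference 6.50, edgeR adjusted p = 1.03e-06), with replicate 1 again the lowest of its group.

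The 18 ER chaperone and folding genes, which answer mainly to the other arms of the unfolded protein response, changed little in size. With MI-503 against DMSO they ranged from −0.42 to 0.14, with 8 lower and 2 higher (median −0.08), or 5 lower and 3 higher with upper-quartile factors. Between the combination and MI-503 they ranged from −0.36 to 0.42, with 8 higher and 2 lower (median 0.11), or 7 higher and 2 lower without combination replicate 1. DNAJC3, a co-chaperone that also inhibits eIF2 kinases, and SYVN1, a ubiquitin ligase of ER-associated degradation, were higher by 0.37 and 0.42 (edgeR adjusted p = 1.18e-05 and 1.39e-05), and the disulfide isomerase PDIA6 was lower by −0.36 (edgeR adjusted p = 7.63e-05).

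**Figure D4:**
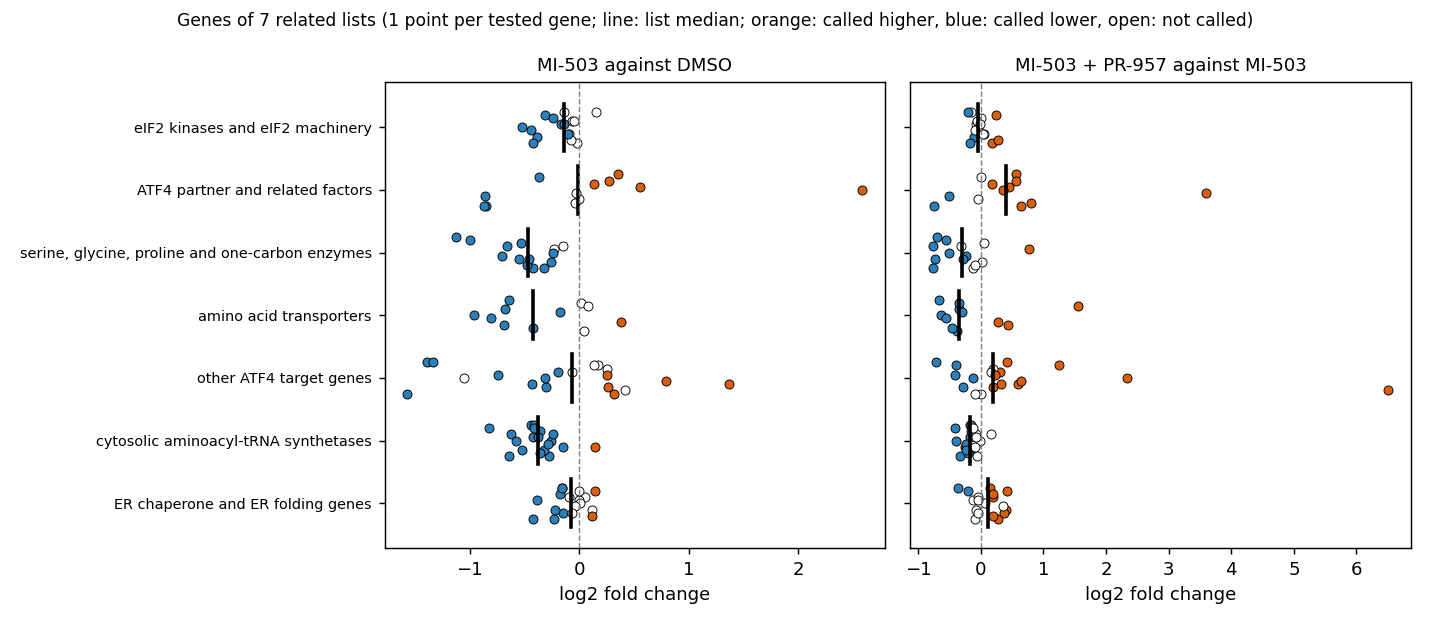
Log2 fold changes (x axes) of the tested genes of 7 related lists, 1 point per gene, with MI-503 against DMSO and with MI-503 + PR-957 against MI-503, orange where called higher, blue where called lower, open where not called, and a line at each list's median. In the right panel the enzymes, the transporters and the aminoacyl-tRNA synthetases have medians of −0.30, −0.34 and −0.17, while ATF4 partners and other ATF4 targets have medians of 0.41 and 0.20. The ATF4 partners include NUPR1 and the other ATF4 targets include GDF15, and neither would have passed the filter on low counts without the combination group.

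Markers of myeloid cells moved with the same treatments. Of the 8 myeloid markers tested, 7 were higher and FLT3 was lower with MI-503 against DMSO (22.0% and 29.3% of all genes). In the combination against MI-503, 5 were higher and 2 were lower (23.6% and 23.8% of all genes). Means fell in that step for FLT3 (230 to 193 CPM), MPO (216 to 130 CPM) and CD33 (42.3 to 39.7 CPM), while LYZ went from 375 to 1640 CPM. Their summed level was 1544 to 1620 CPM in DMSO, 2062 to 2224 CPM in MI-503 and 2236 to 4520 CPM in the combination, where LYZ alone reached 2511 CPM in 1 library. The lymphoid and erythroid markers, nearly all of it NCAM1, summed to 157 to 166 CPM, 186 to 196 CPM and 110 to 146 CPM in the same groups. In bulk RNA a change in the share of cells in a given state and a change of RNA per cell cannot be told apart, and the part of either in the values above was not tested.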

How the data were processed

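RNA sequencing libraries of MOLM-13 cells (TruSeq, 150-base paired-end reads per the study's methods) were deposited by the authors as raw read counts per gene, the unit used here. The submitters' processing notes name Trimmomatic 0.39, STAR 2.7.10a and featureCounts 2.0.1. Per the file headers, fragments were counted over exons by gene, without strand, on an hg38 RefSeq annotation, from alignments filtered by a rule not given in the sources used here. Fragments with several alignments or touching exons of several genes were left out, so overlapping genes lose counts and antisense partners cannot be told apart. The authors' DESeq2 tables of log2 fold changes and p-values were not used.

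The joined table and the single-library counts did not differ in any cell. Genes were kept by filterByExpr (minimum count 10), scaled with TMM factors (0.957 to 1.06) and fitted over all 11 libraries with edgeR 4.0.16 (quasi-likelihood test, R 4.3.3), Benjamini-Hochberg adjusted over 14683 genes. At these depths (18891243 to 41153974 fragments) the biological coefficient of variation was 6.14% on 8 residual degrees of freedom. No pair of replicates agreed within sampling noise (chi-square per degree of freedom 1.72 or more). The alternatives were RLE and upper-quartile factors, library totals, other filters, DESeq2 1.42.0, limma-voom 3.58.1, a replicate block, the groups compared alone and each library left out. The fit was tested on simulated data for the combination against MI-503, in which 14483 of 14683 genes were unchanged. It called 49 and 47 of 50 genes raised and lowered by 1 on the log2 scale, 44 and 32 of 50 raised and lowered by 0.5, and 18 of the 14483 unchanged genes. The real comparison called 47.4% of genes, a far larger share than was changed in the simulation. These rates therefore do not carry over to the calls reported here. The members and lists were chosen with earlier results of these data known. Named genes were the members, the genes sharing exons with them, the gene most like each, and the 3 of each list with the smallest adjusted p for the combination against MI-503. Of 20 cytosolic aminoacyl-tRNA synthetases listed, 19 were in the table. Some genes of the lists are counted but not reported here by name.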

Additional observations from a re-analysis of the deposited data

Results flagged for a closer look

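ASNS in MI-503 replicate 1 was at 3.52 CPM, while the other MI-503 libraries lay between 2.37 and 2.56 CPM. The gap to its nearest neighbour was 0.838 of the group's range, above Dixon's 95% critical value for 4 libraries. Among the 18 groups of libraries tested this way, chance alone flags about 1 in 20. The value rests on 76 fragments, and the cause was not tested.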

How the results depend on the processing

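Of 27 member results (a gene in a comparison), 22 kept their direction and side of the threshold under all 20 alternatives. The other 5 were ASNS with MI-503 against DMSO (−0.51 to −0.31), ATF3 in both comparisons of the combination, ATF4 in the combination against MI-503 (−0.22 without combination replicate 1), and PPP1R15A with MI-503 against DMSO, which ranged from −0.02 (without DMSO replicate 2) to 0.08 with a library left out, with no call. ATF3 in the combination against DMSO was also lost with library totals only (−0.26, edgeR adjusted p = 0.0777). The members' median for the combination against DMSO moved from −0.75 to −0.66 with library totals only. For the combination against MI-503 it ranged from −0.35 to −0.24 when each library was left out, with −0.35 without combination replicate 1. Without that library 3 members were higher and 5 lower against MI-503, where 49.3% of all genes were called.

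Of 72 results of other named genes, 57 held under all alternatives. Reversals were between uncalled values near 0. With MI-503 against DMSO, DELE1 turned from −0.02 to 0.01 (RLE, stricter filter, DESeq2), 0.04 (upper quartile), 0.02 (library totals), 0.00 (no filter) and 0.03 (groups compared alone), or −0.03 to 0.03 with a library left out. NUPR1 turned from −0.03 to 0.03 (upper quartile) and 0.01 (library totals, limma-voom), or −0.20 to 0.10 with a library left out, and SYVN1 ranged from −0.03 to 0.05 with a library left out. MARS1 in the combination against MI-503 went from −0.06 to 0.00 with library totals.

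Deviations of same-numbered replicates of different groups correlated with r from −0.25 to 0.29 (median 0.12, 10 pairs), against −0.32 to 0.32 (median −0.08) over 30 differently numbered pairs. The labels do not say that a number marks a shared batch, so the libraries were not treated as paired. A replicate block left 7 members lower with MI-503 (ASNS at −0.36, edgeR adjusted p = 0.0484) and changed no member's call. The cause of these shifts was not tested. Depth limits ASNS, CHAC1 and ATF3 most, with at most 115, 246 and 281 fragments a library.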
